A study of Mus musculus with 10 samples.

Results

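The genes described here are 38 nuclear genes for subunits of the 5 complexes of oxidative phosphorylation, out of 36528 gene identifiers counted by RNA-seq. They were taken from a list of names. It held 15 genes from complex I, 4 from complex II, 6 from complex III, 8 from complex IV and 5 from complex V. The list was drawn up with earlier results of these data known. Polyadenylated RNA came from purified tumour-associated macrophages (TAMs) of C57Bl/6 mice that carried MC-38 tumours, MC-38 being a transplantable mouse colon carcinoma line. The mice had received an antibody to MerTK, a receptor with which macrophages take up dying cells, or an antibody to gp120, a viral protein with no counterpart in mice, and the series describes profiling after 24 h of anti-MerTK. Each antibody group held 5 libraries, and every library carried the same strain, tumour and cell label. The labels do not say whether each library came from its own mouse, so each p-value covers the spread among these libraries alone, and that spread may be technical.

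The respiratory chain sits in the inner mitochondrial membrane. Complexes I and II pass electrons from NADH and succinate to ubiquinone, complex III passes them on to cytochrome c, complex IV passes them to oxygen, and complex V uses the proton gradient built by complexes I, III and IV to make ATP. Most subunits are encoded in the nucleus and imported, whereas a core set is encoded in mitochondrial DNA, so a working complex draws on both genomes. In macrophages the balance between this chain and glycolysis is known to shift with activation state, and complex II also belongs to the tricarboxylic acid cycle.

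Libraries held 33159858 to 46108687 counted reads, and 13588 genes had enough reads to be tested, among them 38 of the 38 subunit genes. The 9 macrophage markers were detected in 10 of 10 libraries and summed to 27980 to 38051 CPM (counts scaled to a common library size) with anti-gp120 and 29901 to 35986 CPM with anti-MerTK. Carcinoma cell markers summed to at most 1.84 CPM, with Cldn4 at 0 in every library. The 6 monocyte markers summed to 122 to 266 CPM with anti-gp120 and 272 to 432 CPM with anti-MerTK. This sum did not overlap between the groups. Of the 6 markers, 1 passed the test described below, on the higher side, where 3.22% of all tested genes passed in either direction. Dendritic cell markers summed to 24.6 to 63.6 against 48.3 to 91.7 CPM, and neutrophil, T cell, B cell, NK cell, fibroblast and endothelial markers overlapped between groups. The part of these other cells in the results below was not tested. In such bulk libraries fewer cells of a type and less RNA per cell cannot be told apart.

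None of the 38 subunit genes passed the test between antibodies. With edgeR's quasi-likelihood test and Benjamini-Hochberg adjustment over all genes at 0.05, 0 subunit genes were higher and 0 lower after anti-MerTK, where 3.22% of all tested genes were called (251 genes or 1.85% higher, and 187 or 1.38% lower). The smallest adjusted p among the subunits was 0.0539, for Ndufs1. At an unadjusted p under 0.05 there were 6 subunit genes, Ndufb8, Ndufs7, Uqcrc1, Uqcrq and Cox5b on the higher side and Ndufs1 on the lower, which is 15.8% of the list against 20.9% of all tested genes (10.1% higher and 10.8% lower). DESeq2 and limma-voom each called 2 of the 38, Ndufs1 lower and Ndufs7 higher, while calling 9.19% and 7.62% of the genes they tested.

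Log2 fold changes (anti-MerTK over anti-gp120) of the subunit genes ran from -0.27 to 0.74 with a median of 0.08, beside a median of -0.01 over all tested genes. They were above 0 for 28 of the 38 genes, or 73.7%, against 49.0% of all tested genes and 61.4% of the shortest 25% of them, the class to which 33 of the 38 belong. With offsets that take out the trend with gene length in each library, 23 of the 38 (60.5%) were above 0, against 47.3% of all tested genes, and the median was 0.02. The 95% interval of the fold change lay within 1.5-fold in either direction for 37 of the 38, and Cox7c was the exception. By complex the median log2 fold change was 0.08 for complex I, 0.01 for complex II, 0.13 for complex III, 0.10 for complex IV and 0.05 for complex V. With length offsets these medians were 0.02, -0.04, 0.07, 0.03 and -0.02, so those of complexes II and V changed sign. Without the offsets the number of genes above 0 was 12 of 15, 2 of 4, 4 of 6, 6 of 8 and 4 of 5 in the same order. These differences between complexes were not tested. The standard errors of single genes had a median of 0.07 on the log2 scale.

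**Figure D1:**
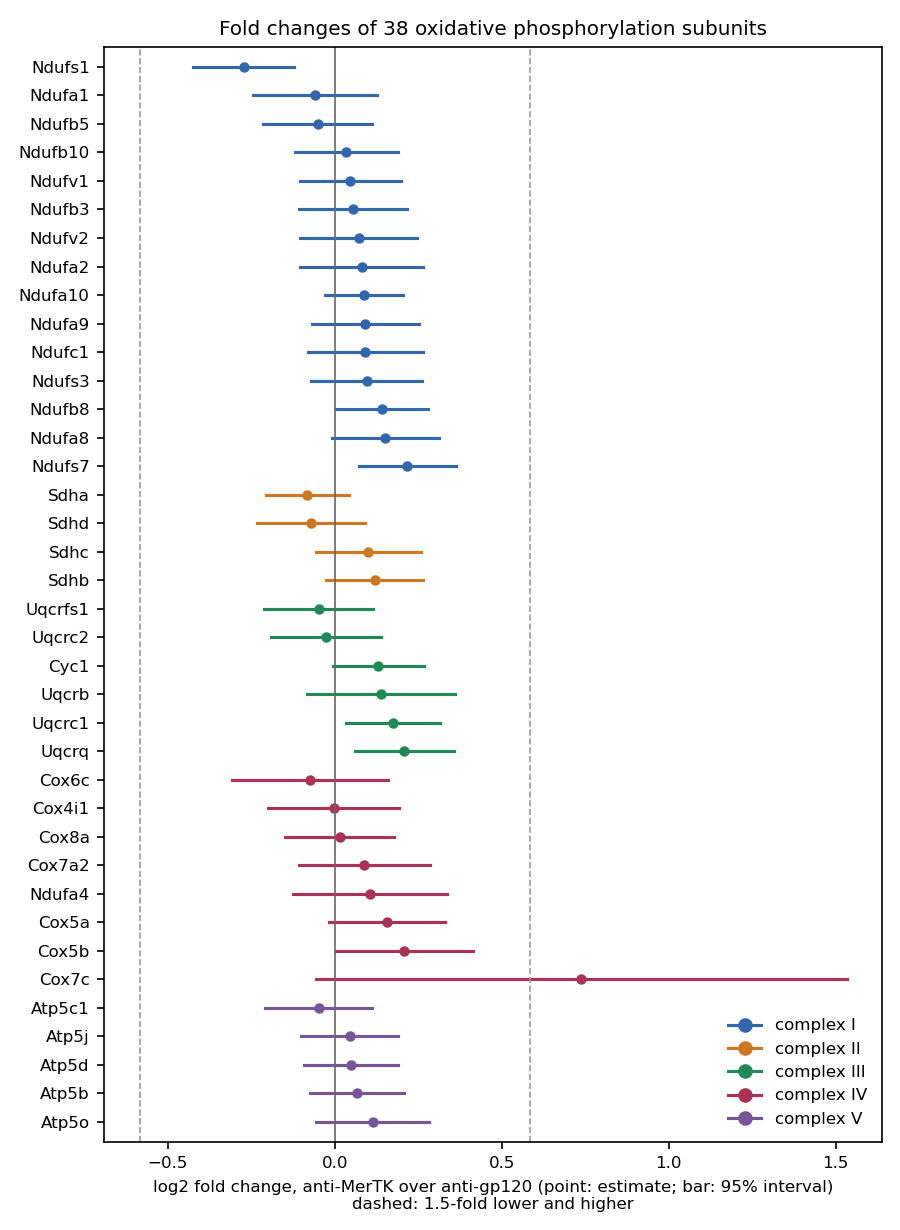
Log2 fold change (anti-MerTK over anti-gp120) of each of the 38 subunit genes on the horizontal axis, with the 95% interval from edgeR, coloured by complex. Points run from -0.27 (Ndufs1) to 0.74 (Cox7c), and the interval of Cox7c (-0.06 to 1.53) is far wider than the others.

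Levels per gene length spanned a wide range. As RPKM, which scales counts to gene length and library size, averaged over the 10 libraries, Cox4i1 stood highest at 551, followed by Atp5b at 498, Cox8a at 351 and Cox5a at 338. These 4 were the only genes above 250 RPKM, 26 lay between 50 and 250, and 8 lay below 50. The lowest were Cox7c at 0.852, Ndufs1 at 16.4 and Uqcrb at 16.7, the last pair differing by less than the spread between libraries. Median levels were 66.7 RPKM for complex I, 152 for complex II, 99.0 for complex III, 194 for complex IV and 165 for complex V. Within complex IV, whose nuclear subunits surround a core encoded in mitochondrial DNA, levels ran from 0.852 to 551 RPKM, while within complex II they ran from 73.5 RPKM for Sdha to 183 for Sdhb.

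**Figure D2:**
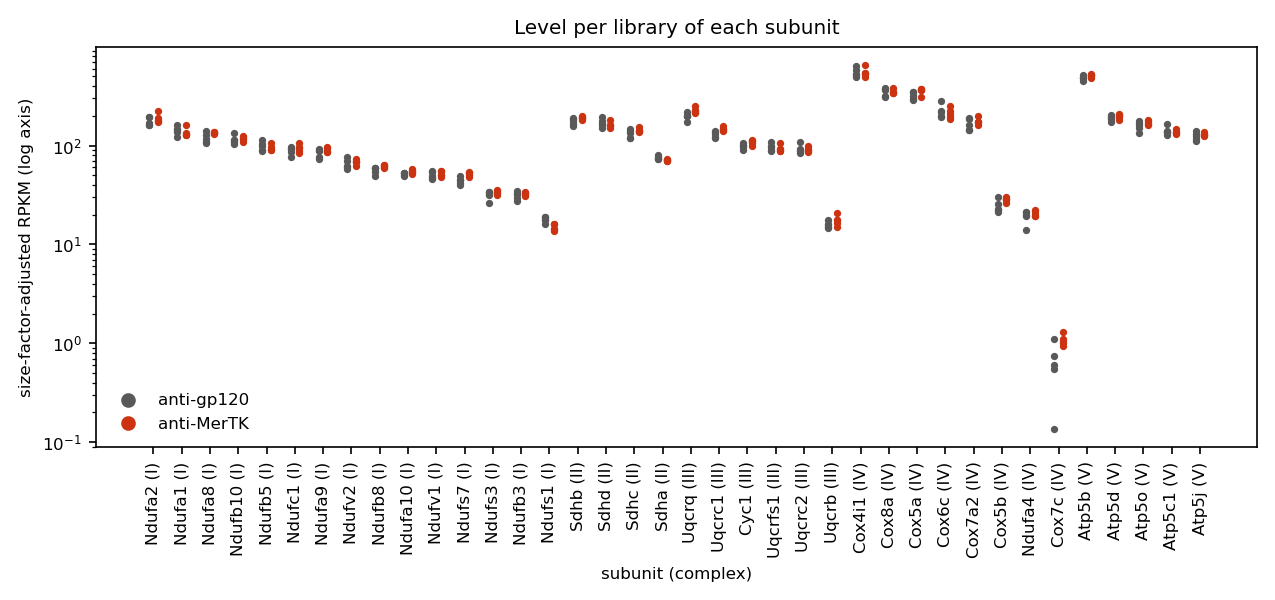
Size-factor-adjusted RPKM on a log axis for each subunit gene, 1 point per library, with anti-gp120 in grey and anti-MerTK in red, ordered by complex and then by level. The groups share their range at each gene, Ndufs1 only just so, and Cox7c lies below 2 RPKM in every library, apart from all other subunits.

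Only uniquely aligned reads were counted, so genes with near-identical processed copies can lose reads. Of the 38 genes, 27 shared no stretch of 50 bases with an annotated pseudogene. The other 11 shared between 0.857% (Atp5b) and 43.2% (Uqcrb) of their stretches of 50 bases. Ndufs3 shared 35.8%, Atp5o 19.1%, Cox6c 13.9% and Cox7c 10.6%, so levels of these genes are uncertain. Some genes at 0% shared stretches with other annotated genes, as Cox5b (25.9%), Uqcrc2 (24.8%), Ndufb5 (16.2%) and Cox4i1 (14.7%). Their levels are uncertain too. Cox7c, at 0.852 RPKM, shared 27.9% of its stretches with any other annotated gene, pseudogenes included. By this measure Atp5o shared 50.3%, Uqcrb 43.4% and Ndufs3 39.7%, at 165, 16.7 and 32.6 RPKM. Cox5a, at 338 RPKM, also shared more than Cox7c. The count of Cox7c was low, at 2 to 21 reads per library. In contrast the lowest count of the other 37 genes in any library was 262 reads. How far this sharing set the level of Cox7c was not tested. Of the 38 genes, 16 overlap another gene on the chromosome, and whether counting used strand is not given in the sources used here.

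Nuclear genes of respiration are known to share promoter motifs for a few transcription factors, and the subunit genes were searched for such words. RefSeq windows of 300 bases (250 before the start and 50 after) were read for 29 of the 38 genes and for 27025 promoters in all, the other 9 genes being Ndufa2, Ndufs1, Sdhc, Uqcrc2, Uqcrb, Uqcrq, Cyc1, Cox4i1 and Cox6c. A word of the type bound by nuclear respiratory factor 1, GCGCANGC on either strand, lay in 7 of 29 windows (24.1%), against 10.1% of all promoters. An ETS-type word, CCGGAAG, lay in 13.8% against 9.12%, and a YY1-type word, AAGATGG, in 17.2% against 6.48%. The CCAAT box was in 20.7% of these windows and 37.9% of all, and the GC box GGGCGG in 41.4% and 35.9%. Windows of the other nuclear subunit genes, 37 in number, held the 5 words in 40.5%, 32.4%, 13.5%, 56.8% and 40.5% in the same order, so the CCAAT box lay below the share of all promoters in the listed genes and above it in the others. At least 1 of the first 3 words was in 14 of the 29. Words can overlap one another, and a match describes letters only. The nuclear respiratory factor word was in 3 of 3 complex II windows, 2 of 13 in complex I, 1 of 2 in complex III, 0 of 6 in complex IV and 1 of 5 in complex V. The stretches below, from 170 bases before the start to 30 after it, belong to the genes of smallest p in complexes II, III and V that have an entry. They are shown because each holds that word (RefSeq, GRCm38.p6, 5′ to 3′ on the gene's strand). Sdhb is at chr4:140961101-140961300 on the plus strand, Uqcrc1 at chr9:108936478-108936677 on the plus strand and Atp5o at chr16:91931601-91931800 on the minus strand. Capitals mark the letters of any of the 5 words.
Sdhb: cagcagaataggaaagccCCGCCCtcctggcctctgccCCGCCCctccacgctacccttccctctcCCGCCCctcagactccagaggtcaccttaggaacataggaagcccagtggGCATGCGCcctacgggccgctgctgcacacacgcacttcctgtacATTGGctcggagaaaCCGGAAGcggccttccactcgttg
Uqcrc1: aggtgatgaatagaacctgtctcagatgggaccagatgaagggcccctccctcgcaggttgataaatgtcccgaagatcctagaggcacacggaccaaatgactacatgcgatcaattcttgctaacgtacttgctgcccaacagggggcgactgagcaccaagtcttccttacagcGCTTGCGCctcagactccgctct
Atp5o: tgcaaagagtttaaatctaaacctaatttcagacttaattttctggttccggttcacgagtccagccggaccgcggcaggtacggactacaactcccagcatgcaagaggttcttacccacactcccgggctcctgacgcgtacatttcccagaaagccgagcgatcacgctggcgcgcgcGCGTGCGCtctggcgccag
In Sdhb the word begins at position -54 and shares the stretch with 3 GC boxes, a reversed CCAAT box and an ETS-type word. In Uqcrc1 and Atp5o it begins after the start, at positions 8 and 12. None of these genes passed the test between antibodies. Of the factors that bind such words, Nrf1 measured 26.8 ± 1.24 CPM with anti-gp120 and 27.4 ± 0.567 with anti-MerTK (SD, n = 5).

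In complex I, the entry point for electrons from NADH, Ndufs1 stood lowest per length and had the smallest p of the 38 genes. It encodes the large iron-sulphur subunit of the peripheral arm (Entrez 227197, chromosome 1, 63143592 to 63176822). Anti-gp120 libraries measured 56.6, 58.1, 53.1, 54.7 and 48.1 CPM, and anti-MerTK libraries 43.1, 41.5, 48.0, 43.2 and 48.0 CPM. The groups did not overlap on this scale, although the lowest control and the highest treated libraries were nearly level. On the deposited RPKM scale, whose size factors differ, they did overlap, with anti-gp120 5 at 16.00 and anti-MerTK 5 at 16.01 RPKM. By CPM it was the only 1 of the 38 genes without overlap, or 2.63%, against 5.97% of all tested genes (3.25% higher and 2.72% lower). The mean went from 54.1 ± 3.84 to 44.8 ± 3.0 CPM (SD, n = 5), a log2 fold change of -0.27 ± 0.07 (SE) with an edgeR adjusted p of 0.0539. That p passed the threshold without anti-gp120 5 (0.0309, where 3.94% of all tested genes were called) or without anti-MerTK 5 (0.0422, where 4.77% were). It also passed with DESeq2 (0.0119), limma-voom (0.0302) or a correction for gene length (0.0349, where 2.15% were called). Under the other settings tried it lay between 0.0511 and 0.142, the highest value being without anti-gp120 4.

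Ndufs7, the core subunit that carries the last iron-sulphur cluster before ubiquinone (chromosome 10, 80249105 to 80256794), lay on the other side. It measured 48.8, 45.6, 48.7, 43.4 and 53.7 CPM with anti-gp120 and 55.0, 56.7, 58.5, 57.1 and 51.9 CPM with anti-MerTK. Anti-gp120 5 reached into the treated range and anti-MerTK 5 into the control range, and the other 8 libraries were apart. The log2 fold change was 0.22 ± 0.07 (SE) with an edgeR adjusted p of 0.0972. It was 0.0474 without anti-gp120 5, 0.0403 with DESeq2 and 0.0341 with limma-voom. The core subunits Ndufs1 and Ndufs7, which sit in the same arm, therefore had point estimates of opposite sign, each short of the threshold in edgeR.

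The other core subunits of complex I had log2 fold changes close to 0. Ndufv1, which binds NADH and the flavin where electrons enter, measured 80.3 ± 6.34 CPM with anti-gp120 and 83.0 ± 5.11 with anti-MerTK. Its iron-sulphur partner Ndufv2 measured 106 ± 11.96 and 111 ± 6.38 CPM, and the core subunit Ndufs3 29.5 ± 2.87 and 31.6 ± 1.59 CPM. All overlapped between groups, with edgeR adjusted p of 0.741, 0.651 and 0.508.

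Among the accessory subunits of complex I, which surround the core and carry no redox centre, Ndufb8 (chromosome 19, 44548571 to 44555442) had the smallest p. It lies in the membrane arm and measured 136, 116, 136, 123 and 135 CPM with anti-gp120 against 146, 141, 142, 136 and 146 CPM with anti-MerTK. Anti-gp120 2 and 4 were low, anti-gp120 1 and 3 just reached the lowest treated library, and anti-gp120 5 lay below it. The log2 fold change was 0.14 ± 0.06 (SE) with an edgeR adjusted p of 0.227. Ndufa8, an accessory subunit facing the intermembrane space, had a similar log2 fold change of 0.15 ± 0.07 (SE) and an adjusted p of 0.259 in edgeR. Its anti-MerTK libraries were close together at 95.4 to 101 CPM, while its anti-gp120 libraries ran from 79.7 to 102 CPM.

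Ndufa10, an accessory subunit of the membrane arm, was the steadiest of the 38 genes, with a within-group SD of 0.05 on the log2 CPM scale. It measured 62.7 ± 1.45 CPM with anti-gp120 and 66.6 ± 2.85 with anti-MerTK (SD, n = 5), a log2 fold change of 0.09 ± 0.05 (SE) and an adjusted p of 0.370 in edgeR. The remaining accessory subunits lay between log2 fold changes of -0.06 and 0.09. Ndufa1 (-0.06) and Ndufb5 (-0.05) were below 0. Ndufa2 (0.08), Ndufa9 (0.09), Ndufb3 (0.06), Ndufb10 (0.03) and Ndufc1 (0.09) were above it. Their edgeR adjusted p-values ran from 0.511 for Ndufa9 to 0.818 for Ndufb10.

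Complex II, succinate dehydrogenase, had estimates of both signs, none of which passed the test. Differences between the subunits were not tested. Sdha, the flavoprotein that oxidises succinate (chromosome 13, 74322255 to 74350240), measured 209, 232, 214, 216 and 205 CPM with anti-gp120 and 203, 199.7, 203, 211 and 199 CPM with anti-MerTK. All 5 treated libraries lay below the control mean, and the ranges overlapped. Its log2 fold change was -0.08 ± 0.06 (SE) with an edgeR adjusted p of 0.432. Sdhb, the iron-sulphur subunit that takes electrons from Sdha (chromosome 4, 140961271 to 140979198), measured 189, 169.6, 204, 178 and 200.2 CPM against 206, 212, 195, 205 and 203 CPM. All 5 treated libraries lay above the control mean here, again with overlap, at a log2 fold change of 0.12 ± 0.07 (SE) and an adjusted p of 0.327 in edgeR. The membrane anchors also took both signs, Sdhc at 0.10 ± 0.07 and Sdhd at -0.07 ± 0.07 on the log2 scale (SE).

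In complex III, which moves electrons from ubiquinol to cytochrome c, both members with an unadjusted p under 0.05 were on the higher side. Uqcrc1, a core protein of the matrix side (chromosome 9, 108936648 to 108949641), measured 215, 198, 222, 203 and 234 CPM with anti-gp120 and 257, 241, 242, 232 and 237 CPM with anti-MerTK. Only anti-gp120 5 reached into the treated range. The mean was 214 ± 14.3 against 242 ± 9.48 CPM (SD, n = 5), with a log2 fold change of 0.17 ± 0.06 (SE) and an edgeR adjusted p of 0.153. Its partner core protein Uqcrc2 showed no such difference, at 174 ± 16.9 and 170.3 ± 9.80 CPM and a log2 fold change of -0.03 ± 0.08 (SE). Whether the pair differed from each other was not tested.

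Uqcrq, a small subunit that contacts cytochrome b (chromosome 11, 53427922 to 53430831), measured 117, 94.5, 107, 107 and 107 CPM with anti-gp120 and 116, 121, 123, 119 and 135 CPM with anti-MerTK. Anti-gp120 1 alone lay within the treated range. The log2 fold change was 0.21 ± 0.07 (SE) with an edgeR adjusted p of 0.112, and the gene overlaps Gdf9. Cyc1, the cytochrome that hands electrons to cytochrome c, was at 117 ± 6.97 and 128 ± 6.56 CPM (adjusted p 0.259 in edgeR). The Rieske iron-sulphur protein Uqcrfs1 was at 126 ± 10.4 and 122 ± 9.80 CPM (adjusted p 0.747 in edgeR). Uqcrb, a small subunit near the ubiquinone site, was at 7.96 ± 0.615 and 8.76 ± 1.06 CPM (adjusted p 0.467 in edgeR).

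Complex IV, cytochrome c oxidase, held both the highest and the lowest gene of the list. Cox4i1, the large nuclear subunit in its common isoform (chromosome 8, 120668225 to 120674209), measured 389.6, 382, 480.2, 398 and 436 CPM with anti-gp120 and 400.1, 371, 410.4, 411 and 488 CPM with anti-MerTK. The groups covered nearly the same range, and the log2 fold change had a 95% interval of -0.20 to 0.19. Cox5b, a zinc-binding subunit on the matrix side (chromosome 1, 36691487 to 36693388), measured 13.0, 12.8, 16.9, 12.1 and 14.6 CPM against 16.1, 17.1, 15.8, 14.95 and 16.1 CPM. Of the controls only anti-gp120 3 lay within the treated range. Its log2 fold change was 0.21 ± 0.09 (SE) with an edgeR adjusted p of 0.233, and 25.9% of its stretches of 50 bases occur in other annotated genes.

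Cox5a, another matrix-side subunit, measured 238, 200.1, 241, 204 and 220.1 CPM with anti-gp120 and 211, 253, 257, 253 and 255 CPM with anti-MerTK. Anti-MerTK 1 fell among the controls, and the other 4 treated libraries lay above every control. The log2 fold change was 0.16 ± 0.08 (SE) with an edgeR adjusted p of 0.280. The membrane subunits Cox6c (-0.08), Cox7a2 (0.09) and Cox8a (0.01), and Ndufa4 (0.11), formerly counted with complex I and now placed in complex IV, had edgeR adjusted p-values from 0.608 to 0.936.

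Cox7c, a small membrane subunit (chromosome 13, 86044798 to 86046795), had the widest spread. It measured 0.247, 0.336, 0.0610, 0.270 and 0.490 CPM with anti-gp120 and 0.490, 0.586, 0.458, 0.453 and 0.418 CPM with anti-MerTK. Anti-gp120 5 sat within the treated range and the other controls below it. The log2 fold change of 0.74 ± 0.37 (SE) had a 95% interval of -0.06 to 1.53 and an edgeR adjusted p of 0.267, so no difference was called. Counts were 2 to 21 reads per library, and what set the width of the interval was not tested.

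Complex V, ATP synthase, had the narrowest set of estimates. Atp5b, the catalytic beta subunit (chromosome 10, 128083307 to 128090388), measured 973, 914, 923, 847 and 895 CPM with anti-gp120 and 975.2, 908, 978, 938 and 966 CPM with anti-MerTK. The ranges overlapped throughout, and the log2 fold change was 0.07 ± 0.07 (SE) with a 95% interval of -0.08 to 0.21. Atp5c1, the central rotor stalk subunit, was at 255 ± 24.8 and 246 ± 10.5 CPM, and Atp5d, also of the central stalk, at 183 ± 11.4 and 189 ± 9.16 CPM. Of the peripheral stalk, Atp5o (chromosome 16, 91925223 to 91931630) measured 122 ± 13.0 and 132 ± 6.29 CPM and Atp5j 108 ± 9.04 and 111 ± 4.24 CPM. Adjusted p-values in edgeR ran from 0.431 for Atp5o to 0.743 for Atp5c1.

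The subunit genes varied together from library to library within each antibody group. Against its own mean over the 10 libraries, a subunit gene was above in 26, 4, 27, 3 and 18 of 38 cases in anti-gp120 1 to 5 and in 15, 20, 25, 26 and 35 cases in anti-MerTK 1 to 5. Anti-gp120 2 and 4 were thus low for most subunits, being the lowest library for 14 and 15 genes. Anti-gp120 3 was the highest library for 12 genes and anti-MerTK 5 for 14. The summed level of the 38 genes was 5345 ± 327 CPM with anti-gp120 and 5533 ± 203 CPM with anti-MerTK (SD, n = 5), with overlapping ranges. Of the 38 genes, 15 had all 5 treated libraries above the control mean and 2, Ndufs1 and Sdha, had all 5 below it. Those shares were 39.5% and 5.26%, beside 15.8% and 18.9% of all tested genes and 24.6% and 8.12% of the shortest 25%. The 41 nuclear-encoded subunit genes outside the list followed the same libraries, with 31, 2, 33, 5 and 20 above their own mean in anti-gp120 1 to 5 and 8, 19, 30, 20 and 38 in anti-MerTK 1 to 5.

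**Figure D3:**
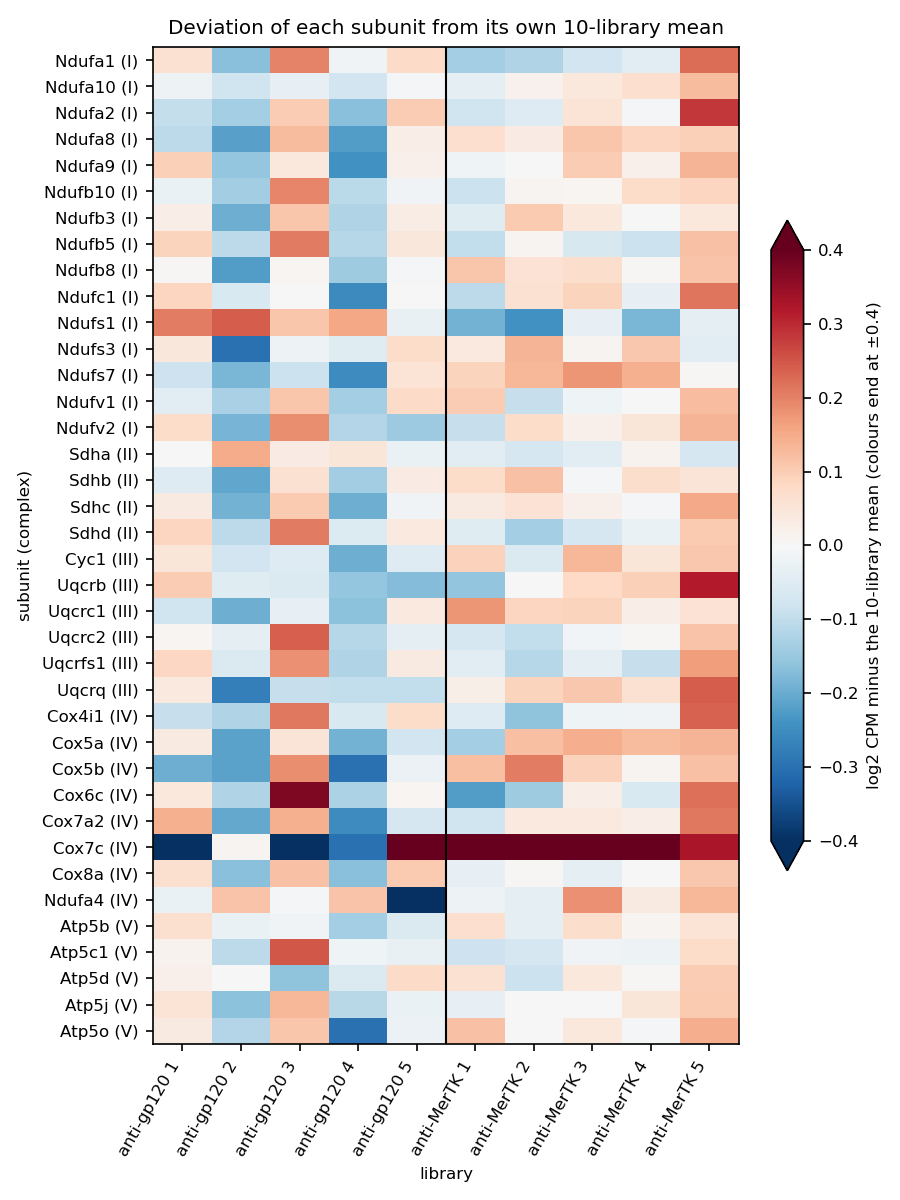
Deviation of log2 CPM from each gene's mean over the 10 libraries, with genes in rows ordered by complex and libraries in columns ordered by group. Columns anti-gp120 2 and anti-gp120 4 are low for most genes, and anti-MerTK 5 is above the mean for 35 of the 38.

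Gene length moved with the same libraries. Length was taken from the deposited length scaling, and the shortest 25% of tested genes held 3397 genes, among them 33 of the 38. The median deviation of that class was -0.10 on the log2 scale in anti-gp120 2 and in anti-gp120 4, and 0.09 in anti-MerTK 5. For the longest 25% it was 0.19, 0.14 and -0.12 in those libraries. The class of short genes had a median log2 fold change of 0.06 and that of long genes -0.11. Under the length offsets Ndufs1, with an edgeR adjusted p of 0.0349, was the only subunit gene called.

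**Figure D4:**
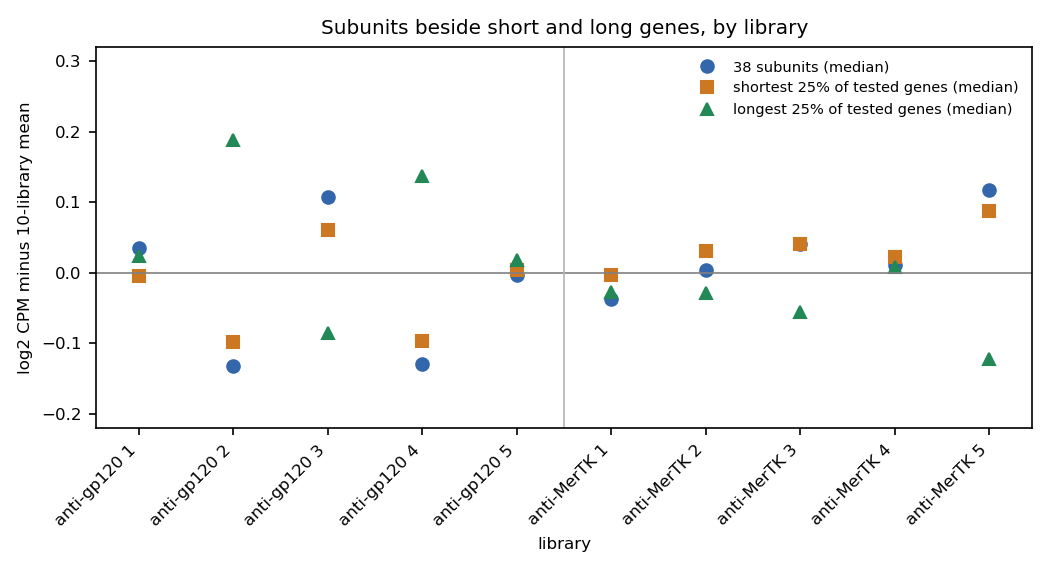
Median deviation of log2 CPM from the gene's own mean in each library for the 38 subunit genes, for the shortest 25% and for the longest 25% of tested genes. Subunits and short genes are both low in anti-gp120 2 and 4 and high in anti-MerTK 5, where long genes take the opposite sign.

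Subunits encoded in mitochondrial DNA, the core partners of complexes I, III, IV and V, had estimates on the lower side. Of 13 such genes 10 could be tested, and 0 were called by edgeR (3.22% of all tested genes). Log2 fold changes were below 0 for 9 of the 10, against 51.0% of all tested genes, with a median of -0.26. The unadjusted p was under 0.05 for 6, where 20.9% of all tested genes had one. mt-Nd1, a core membrane subunit of complex I, measured 1159.9, 1329, 1129, 1297 and 1030.1 CPM with anti-gp120 and 862, 957, 1084, 1000.2 and 1044 CPM with anti-MerTK. Most controls lay above the treated libraries, and anti-gp120 5 lay inside their range. The log2 fold change was -0.26 ± 0.09 (SE) and the edgeR adjusted p 0.126. mt-Nd6 and mt-Nd2, also membrane subunits of complex I, stood at -0.25 ± 0.09 and -0.28 ± 0.10 (SE), with adjusted p-values of 0.143 and 0.151 in edgeR. mt-Cytb, the complex III subunit that binds ubiquinol, stood at -0.30 (adjusted p 0.190 in edgeR), and mt-Co1, the catalytic subunit of complex IV, at -0.03 (adjusted p 0.907 in edgeR). Summed over the 13 genes the level was 7021 ± 1002 CPM with anti-gp120 and 6096 ± 462 CPM with anti-MerTK (SD, n = 5), with overlapping ranges. Anti-gp120 2 and 4 stood highest, at 8174 and 8001 CPM. Anti-gp120 1, 3 and 5 were at 6679, 6182 and 6069 CPM, and the treated libraries ran from 5554 to 6659 CPM. Anti-gp120 2 and 4 were also the libraries in which most nuclear subunits were low. mt-Nd3, mt-Nd4l, mt-Co2, mt-Co3 and mt-Atp6 each stood under 1 CPM and shared 98.0% to 100% of their stretches of 50 bases with annotated pseudogenes, so their levels are uncertain. The estimate for mt-Atp6 was -0.74 ± 0.26 (SE) on the log2 scale, with an edgeR adjusted p of 0.129. mt-Atp8 was as low, at 0.221 and 0.0781 CPM, while sharing 0% with them, and mt-Nd4 and mt-Co1 shared 62.2% and 51.1% and stood far above 100 CPM. What set these levels was not tested. The opposite signs of the nuclear and mitochondrial medians were not tested against each other.

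**Figure D5:**
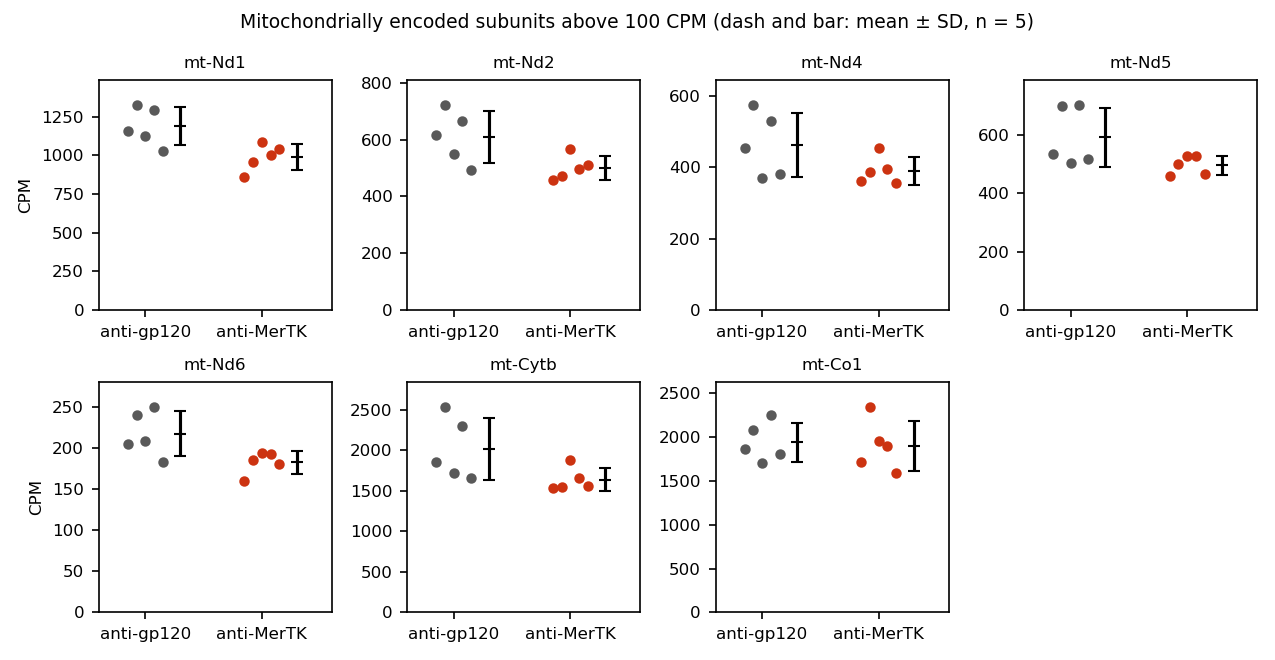
CPM in each library for the 7 mitochondrially encoded subunit genes above 100 CPM, anti-gp120 in grey and anti-MerTK in red, with mean and SD (n = 5) as dash and bar. In mt-Nd1 the means are 1189 and 990 CPM, and every panel has overlapping groups.

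The 41 other nuclear-encoded subunits had 0 calls in edgeR (3.22% of all tested genes). At an unadjusted p under 0.05 there were 6 (20.9% of all tested genes). Log2 fold changes were above 0 for 31 of the 41, or 75.6%, with a median of 0.05. That share was 49.0% over all tested genes and 61.4% over the shortest 25% of them. The smallest p was for Cox7a2l, a factor that joins complexes III and IV in supercomplexes, at 100.7 ± 17.3 and 79.6 ± 6.38 CPM (log2 fold change -0.34 ± 0.11 SE, adjusted p 0.103). Ndufb7, Ndufa12 and Ndufa11, accessory subunits of complex I, were at log2 fold changes of 0.21, 0.22 and 0.18.

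Among 47 assembly factors, which build the complexes and are not part of them, 2 rose and 0 fell in edgeR, where 3.22% of all tested genes were called. Both act in complex IV, to which 20 of the 47 factors belong. Cox17, the copper chaperone of cytochrome oxidase (chromosome 16, 38346983 to 38352763), measured 49.4, 45.05, 47.3, 43.1 and 48.2 CPM with anti-gp120 and 52.7, 61.9, 57.8, 56.3 and 62.1 CPM with anti-MerTK. The groups did not overlap, and Cox17 rose with a log2 fold change of 0.32 ± 0.07 (SE) and an adjusted p of 0.0262. Cox18, which inserts a mitochondrially encoded subunit into the membrane (chromosome 5, 90214724 to 90224595), measured 8.79, 8.44, 9.40, 8.79 and 10.4 CPM against 12.7, 14.2, 12.1, 11.3 and 10.8 CPM. Here too every treated library was above every control, with a log2 fold change of 0.42 ± 0.10 (SE) and an adjusted p of 0.0397. Neither call was stable to the choice of libraries. The Cox17 call was lost without anti-gp120 2 or 4 or anti-MerTK 2 or 3, with an adjusted p of up to 0.0791. The Cox18 call was lost on leaving out any of 8 libraries, all but anti-gp120 5 and anti-MerTK 5, with an adjusted p of up to 0.105, and with length offsets (0.0833).

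Over the assembly factors 36 of 47 log2 fold changes (76.6%) were above 0, with a median of 0.11. That share was 49.0% over all tested genes and 61.4% over the shortest 25% of them. Groups did not overlap for 7 of the 47 (14.9%), 6 higher and 1 lower, against 5.97% of all tested genes. Ecsit, a complex I assembly factor, and Sco1, a copper carrier of complex IV, did not pass, at 0.36 ± 0.09 (adjusted p 0.0565) and 0.72 ± 0.20 (adjusted p 0.0769) on the log2 scale. In edgeR 0 of the 8 complex IV subunit genes described above were called, where 3.22% of all tested genes were. The 4 other nuclear-encoded complex IV subunits also had 0 calls, while the isoform Cox6a2, described below, rose.

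Of 14 genes for mobile carriers and coenzyme Q synthesis, 1 rose and 1 fell in edgeR, where 1.85% of all tested genes were higher and 1.38% lower, and the median log2 fold change was 0.19. Coq2, which attaches the isoprenoid tail of ubiquinone (chromosome 5, 100654723 to 100674288), measured 24.5, 21.0, 21.7, 17.99 and 19.8 CPM with anti-gp120 and 31.7, 38.6, 29.2, 26.9 and 28.0 CPM with anti-MerTK. The groups did not overlap, with a log2 fold change of 0.56 ± 0.11 (SE) and an adjusted p of 0.0230. Coq8a, an atypical kinase of the same pathway (chromosome 1, 180165238 to 180196020), measured 4.20, 6.64, 5.70, 7.06 and 7.87 CPM against 3.76, 3.83, 3.39, 4.53 and 4.09 CPM. Anti-gp120 1 lay within the treated range, and the log2 fold change was -0.68 ± 0.16 (SE) with an adjusted p of 0.0407. The Coq2 call was lost without anti-gp120 2 or 4 or anti-MerTK 1 or 3 (adjusted p up to 0.0719 in edgeR). The Coq8a call was lost without any of 8 libraries, all but anti-gp120 1 and anti-MerTK 5 (up to 0.109), and with length offsets (0.0518). Coq6 and Coq4, enzymes of the same pathway, did not pass (0.28 and 0.31 on the log2 scale).

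Of 12 alternative isoforms and regulators of the chain 10 could be tested, and Cox8b and Cox7b2 were at 0 in every library. In edgeR 1 rose, where 3.22% of all tested genes were called, namely Cox6a2, the muscle isoform of a complex IV subunit (chromosome 7, 128205435 to 128206366). It measured 2.72, 2.11, 2.96, 3.49 and 3.63 CPM with anti-gp120 and 4.39, 6.48, 4.37, 5.64 and 4.07 CPM with anti-MerTK. The groups did not overlap, as in 5.97% of all tested genes, with a log2 fold change of 0.74 ± 0.18 (SE) and an adjusted p of 0.0436. That call was lost without any of 8 libraries, all but anti-gp120 5 and anti-MerTK 5 (adjusted p up to 0.0995), and with length offsets (0.0653). AA467197, an inducible relative of Ndufa4, stood at 336 ± 130 and 456 ± 108 CPM (log2 fold change 0.44 ± 0.23 SE, adjusted p 0.308 in edgeR). The uncoupling protein Ucp2 stood at 1623 ± 218 and 1821 ± 91.4 CPM (adjusted p 0.340 in edgeR), and Ndufa4l2 at 0.342 and 0.605 CPM (adjusted p 0.417 in edgeR).

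The tricarboxylic acid cycle feeds electrons to complexes I and II. Of 19 genes listed for it 0 were called by edgeR, against 3.22% of all tested genes. The unadjusted p was under 0.05 for 2 (10.5%), against 20.9% of all tested genes, and the median log2 fold change was -0.02. Mdh2, which makes oxaloacetate and NADH, had the smallest p, at 201 ± 15.5 and 233 ± 11.2 CPM (adjusted p 0.111 in edgeR). Pdha1, which admits pyruvate, was at a log2 fold change of -0.20 (adjusted p 0.118 in edgeR) and Idh3a at 0.15 (adjusted p 0.294 in edgeR). Acod1, which diverts aconitate to itaconate, an inhibitor of complex II, measured 279 ± 123 and 397 ± 106 CPM (log2 fold change 0.51 ± 0.29 SE, adjusted p 0.341 in edgeR).

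Of 14 regulators of mitochondrial gene expression 13 could be tested and 0 were called by edgeR, with 4 at an unadjusted p under 0.05, where 20.9% of all tested genes had one. Groups did not overlap in 2 of the 13, Gabpa and Esrra, where 5.97% of all tested genes did not. Ppargc1a, a coactivator of mitochondrial biogenesis, was not tested, at 0.0231 and 0.0203 CPM. Gabpa, the ETS factor of nuclear respiratory genes, measured 67.1 ± 7.25 and 55.4 ± 2.37 CPM, a log2 fold change of -0.28 ± 0.08 (SE) with an edgeR adjusted p of 0.0676 and no overlap between groups. Esrra, a nuclear receptor of the same programme, measured 39.2 ± 2.60 and 45.3 ± 1.32 CPM, at 0.21 ± 0.06 (SE) with an edgeR adjusted p of 0.0864 and likewise no overlap. Perm1 (0.51 ± 0.17) and Tfb2m (-0.39 ± 0.15) did not pass, with adjusted p-values of 0.122 and 0.157 in edgeR.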

How the data were processed

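RNA-seq libraries of polyadenylated RNA from purified TAMs were grouped by the antibody in the labels, 5 per group, all at 24 h. Replicates were numbered in deposition order, with no pairing. Reads were aligned with GSNAP to GRCm38, per the submitters' processing notes. Neither annotation release nor read counter is named in the sources used here. The deposited counts are whole numbers of uniquely aligned reads per gene, named by Entrez identifier, per the file headers. The deposited RPKM values carry the authors' size-factor adjustment, per the file headers, and equalled count times a gene factor times a library factor (largest relative deviation 6.44e-15). RPKM was used for levels between genes and for relative gene length, and counts for every test.

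Gene names and coordinates are RefSeq's on GRCm38.p6. Names were found for 31049 identifiers in RefSeq and 78 in GENCODE M21, and 5401 stayed unnamed, with 2.14% to 2.65% of counts. Of 257 listed genes 256 were matched. Genes were filtered with filterByExpr and tested with edgeR 4.0.16 (R 4.3.3, TMM, robust quasi-likelihood, two-sided, Benjamini-Hochberg over 13588 genes, threshold 0.05). CPM uses TMM library sizes. Mertk, the antibody's target, measured 91.1 ± 14.3 CPM with anti-gp120 and 78.9 ± 4.96 with anti-MerTK (SD, n = 5; adjusted p 0.263 in edgeR). On data simulated for this comparison over 13588 genes (3 runs, 200 changed genes), 95.0% of 2-fold and 73.0% of 1.5-fold changes were recovered and 5.06% of calls were false. Intervals of fold changes are at 95%.

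The members, lists and tests were chosen with earlier results of these data known. Text names every member and, of each list, the 4 tested genes of smallest p, plus genes picked afterwards for no overlap, for being at 0 or for their role (Nrf1, Ppargc1a, mt-Cytb, mt-Co1, mt-Nd4 and the mitochondrial genes under 1 CPM). Alternatives were RLE or the authors' size factors, all genes with a count, genes reaching 5 CPM in 5 libraries, length offsets, 8 libraries (without anti-MerTK 2 and 5), each library left out, DESeq2 1.42.0 and limma-voom 3.58.1. Sharing was searched with 50-mers of GENCODE transcripts. Each SE was derived from edgeR's test and covers the spread between libraries, drawn toward a trend over all genes.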

Additional observations from a re-analysis of the deposited data

Results flagged for a closer look

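Each of the 38 subunit genes was screened in both groups for 1 library far from the other 4, by the gap to its nearest neighbour over the group's range. Of 76 groups 5 stood out, and chance gives about 1 in 20. Ndufa1 measured 79.8 CPM in anti-MerTK 5, with the nearest library at 66.4. Uqcrfs1 measured 139 CPM in the same library, with the nearest at 120.1, and Cox8a 205 CPM, with the nearest at 191. Ndufa4 measured 20.3 CPM in anti-gp120 5, with the nearest at 28.1. Cox5a measured 211 CPM in anti-MerTK 1, with the nearest at 253.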

How the results depend on the processing

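No paired analysis was possible because the labels give no replicate numbers that groups share. Over 18 settings the 38 subunit genes gave 682 comparisons with the main values. Of these 652 kept their direction and side of the threshold, 8 crossed it (Ndufs1 and Ndufs7) and 22 changed sign in 10 genes, none by a value past 0.0566 on the log2 scale. Of the 38, the length offsets called 1, DESeq2 called 2 and limma-voom 2, and leaving out a library called 0 to 2. Over all genes the 8 libraries called 204, DESeq2 1152 and limma-voom 1036. Leaving out a library called 70 (without anti-gp120 4) to 654 (without anti-MerTK 5). The causes were not tested.

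Median log2 fold changes with length offsets were 0.0299 for complex IV and -0.0211 for complex V. Leaving out a library gave 0.0457 to 0.1054 for all 38, 0.0331 to 0.1046 for complex I, -0.0064 to 0.0607 for complex II, 0.094 to 0.1652 for complex III, 0.062 to 0.1299 for complex IV and 0.0288 to 0.0772 for complex V.

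Sign changes of single genes were small. With length offsets Ndufb10 was at -0.0257, Ndufv1 -0.0178, Cox8a -0.0408, Atp5d -0.0215 and Atp5j -0.0211. With limma-voom Uqcrc2 was at 0.0010 and Cox4i1 at 0.0096, with the 5 CPM filter Cox4i1 at 0.0014, and with 8 libraries Cox8a at -0.0183. Leaving out a library gave -0.0893 to 0.0006 for Ndufb5, -0.0607 to 0.0388 for Uqcrc2, -0.0679 to 0.0566 for Cox4i1, -0.1464 to 0.0226 for Cox6c, -0.028 to 0.0493 for Cox8a and -0.0836 to 0.0162 for Atp5c1. The ends above 0 came without anti-gp120 3 in these 6 genes.

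Of the assembly factors, length offsets called 1, the 8 libraries 1, DESeq2 6, limma-voom 6, and leaving out a library 0 to 4. Of all genes they tested, these settings called 2.15%, 1.47%, 9.19%, 7.62% and 0.509% to 4.77% in the same order. The 5 CPM filter called 4.68%. Of the carrier and coenzyme Q genes, the 5 CPM filter, length offsets and the 8 libraries called 1 each, and leaving out a library 0 to 2. Of the isoforms these 3 settings called 0, and leaving out a library 0 to 1. The 5 CPM filter removed Cox6a2 and Coq8a before testing, so it says nothing of their calls. Other nuclear subunits had 1 call with length offsets (Cox7a2l) and 0 on leaving out any library. The tricarboxylic acid cycle had 1 with DESeq2, and the regulators 2 with DESeq2 and 2 with limma-voom. Values of Cox7c rest on 2 to 21 reads per library.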

Other observations

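Atp5j and Gabpa, listed here for their position and chosen after their values were seen, overlap on chromosome 16, with Atp5j at 84827871 to 84835857 and Gabpa at 84834891 to 84863783. Atp5j measured 108 ± 9.04 CPM with anti-gp120 and 111 ± 4.24 with anti-MerTK, and Gabpa 67.1 ± 7.25 and 55.4 ± 2.37 CPM (SD, n = 5). Neither passed edgeR's test (adjusted p 0.741 and 0.0676), and reads of the shared stretch cannot be assigned without strand.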
